A study of Mus musculus with 10 samples.

Results

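Claudin genes were followed across the cell lineages of the developing mouse lower jaw. They were 9 of the 32285 genes counted, found by their symbols *Cldn1*, *Cldn3*, *Cldn4*, *Cldn5*, *Cldn6*, *Cldn7*, *Cldn10*, *Cldn11* and *Cldn12*, each of which matched 1 gene. The cells came from wild type NMRI embryos with no treatment, as whole mandibles of E11.5 and lower incisor buds of the 2 later days (E14.5, E16.5), dissociated with Collagenase P and captured with 10x Genomics 3' chemistry. The labels list 4, 4 and 2 samples, but the barcodes of a stage could not be assigned to them, so each stage was 1 pool of cells without replicates and no test between groups was possible. E11.5 differs from the later stages in the tissue dissected as well as in age, and these cannot be told apart. Intervals are at the 95% level and cover counting error only, and those of levels and ratios leave out the spread between cells.

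Claudins are membrane proteins that form the strands of tight junctions between neighbouring cells. Some members tighten the seal and others form pores for ions, and a cell type is known by the set it expresses. *Cldn5* is the main claudin of blood vessel endothelium, *Cldn1* seals stratified epithelium, *Cldn3*, *Cldn4*, *Cldn6* and *Cldn7* are epithelial members, with *Cldn6* known from embryonic epithelium, *Cldn10* forms ion pores, *Cldn11* is known from myelin and the testis, and *Cldn12* is widely expressed.

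All 9 genes matched a RefSeq start (13 starts in all, GRCm38.p6), and the 250 bases before the start are shown for the gene that marked endothelium (*Cldn5*) and for 3 that were high in epithelium. They are printed 5′ to 3′ on the strand of the gene, with matches to the motifs searched in capitals. The *Cldn5* stretch lies on the plus strand at chr16:18776597-18776846, that of *Cldn1* on the minus strand at chr16:26371840-26372089, that of *Cldn7* on the plus strand at chr11:69964529-69964778 and that of *Cldn10* on the plus strand at chr14:118787621-118787870. For *Cldn7* and *Cldn10*, which have 2 starts each, the more 5′ one is shown, and 3' counts cannot tell the starts apart.
Cldn5: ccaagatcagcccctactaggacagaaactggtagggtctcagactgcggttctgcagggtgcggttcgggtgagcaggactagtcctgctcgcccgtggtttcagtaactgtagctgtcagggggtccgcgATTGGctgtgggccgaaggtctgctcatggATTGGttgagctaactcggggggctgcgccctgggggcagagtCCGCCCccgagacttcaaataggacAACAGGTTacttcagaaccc
Cldn1: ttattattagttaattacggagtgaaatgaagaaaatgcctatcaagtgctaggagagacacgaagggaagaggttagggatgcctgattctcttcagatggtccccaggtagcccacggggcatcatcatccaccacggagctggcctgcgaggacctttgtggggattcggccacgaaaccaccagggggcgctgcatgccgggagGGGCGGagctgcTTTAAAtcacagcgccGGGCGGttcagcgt
Cldn7: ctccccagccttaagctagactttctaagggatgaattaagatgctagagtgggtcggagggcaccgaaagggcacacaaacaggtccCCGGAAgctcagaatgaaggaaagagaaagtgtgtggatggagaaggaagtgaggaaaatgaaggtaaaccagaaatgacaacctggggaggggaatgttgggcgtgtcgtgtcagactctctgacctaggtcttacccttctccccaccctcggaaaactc
Cldn10: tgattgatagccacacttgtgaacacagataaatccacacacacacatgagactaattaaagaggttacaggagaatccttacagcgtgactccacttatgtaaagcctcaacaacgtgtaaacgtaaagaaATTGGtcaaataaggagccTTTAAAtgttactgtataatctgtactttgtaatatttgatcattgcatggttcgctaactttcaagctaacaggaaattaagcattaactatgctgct
Motifs were searched on both strands, and matches of different motifs were allowed to overlap. The motif TATAAA was in 0 of the 13 claudin stretches and in 12.4% of 32851 stretches of this length. GGGCGG, the letters bound by Sp1, was in 9 of 13 against 32.7% of all, while the motif CCAAT was in 5 of 13 against 33.8%. The stretch of *Cldn5* was the 1 of 13 with the motif AACNGGTT, 13 to 20 bases before its start, against 1.79% of all. The motif TTTAAA, which reads the same on both strands, was in 3 of 13 against 12.1% of all, and 5 of 13 held the motif CCGGAA, as did 3952 of the 32851. The 3 stretches of *Cldn12* overlap each other, so the 13 are not independent. The *Cldn10* stretch shown held 36.0% G and C and 4 CG pairs, where the median of all stretches was 52.4% and 6, while that before its other start held 72.4% and 22. That of *Cldn1* held 55.6% and 14. A match is a run of letters and not a measured site.

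In GENCODE vM21, the 9 genes lie on chromosomes 3, 5, 11, 14, 16 and 17. *Cldn4* (minus strand, bases 134945119 to 134946934) and *Cldn3* (plus strand, 134986214 to 134987472) are neighbours on chromosome 5 with 39279 bases between them. Both are genes of 1 exon, as is *Cldn5* (chromosome 16, bases 18776847 to 18778262), while *Cldn10* spans 87582 bases of chromosome 14 in 4 or 5 exons. *Cldn3* is the only one of the 9 that overlaps another counted gene, the antisense RNA *Wbscr25*.

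The cells kept had 700 genes or more and no more than 20% of their UMIs (unique molecular identifiers, each counting 1 captured RNA molecule) from mitochondria. They were 6573, 6091 and 4511 at the 3 stages in order of age, with a median of 5664, 3471 and 6260 UMIs. A cell was called epithelium, endothelium or mesenchyme when at least 3 markers of that list had a UMI. In addition, no other list but the erythroid one could have more than 1/2 as many. Cells with at least 10% of their UMIs in the erythroid list were called erythroid instead. No claudin is in the lists, which hold for example *Epcam*, *Cdh1* and *Trp63* for epithelium, *Pecam1*, *Cdh5* and *Kdr* for endothelium and *Pdgfra*, *Prrx1* and *Col1a1* for mesenchyme. Epithelium held 7, 678 and 1503 cells at the 3 stages, endothelium 65, 141 and 112, and mesenchyme 5176, 4347 and 2425. The cells of no class, 1112, 633 and 379, were left out of the comparisons, and they held up to 46 UMIs of a claudin at E14.5 (*Cldn6*) and 139 at E16.5 (*Cldn10*). The same lists made the calls, so their summed levels are a description and not a check of the labels. The 10 epithelial markers summed to 2239 and 2977 CPM (UMIs of a gene per 1000000 UMIs of the group) in the later 2 epithelia. In mesenchyme they came to 4.60 to 83.2 CPM. The 10 endothelial markers came to 4061 to 5362 CPM in endothelium and 28.2 to 57.9 CPM in mesenchyme. Between 13 and 17 barcodes occurred in both of any 2 stages.

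*Cldn5* was the claudin of endothelium at every stage and was near 0 in the other lineages. It had 119 UMIs in the 65 endothelial cells of E11.5, or 159.5 CPM (interval 132 to 191), which was 83.8% of its UMIs in the kept cells. At E14.5 it had 142 UMIs in 141 cells, 210.5 CPM (177 to 248), and at E16.5 278 UMIs in 112 cells, 289 CPM (256 to 324). It made up 98.3%, 96.6% and 95.5% of the UMIs of the 9 genes in these cells. In mesenchyme *Cldn5* stood at 0.389, 0.469 and 0.113 CPM, and in the 678 and 1503 epithelial cells of the later stages it had 0 and 2 UMIs. A *Cldn5* UMI was found in 60.0%, 48.2% and 72.3% of the endothelial cells of the 3 stages, whose median depths were 6901, 3191 and 5872.5 UMIs. In immune cells of E14.5, a type that should lack the gene, the share was 1.69% (2 of 118 cells, median 6600 UMIs).

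**Figure D1:**
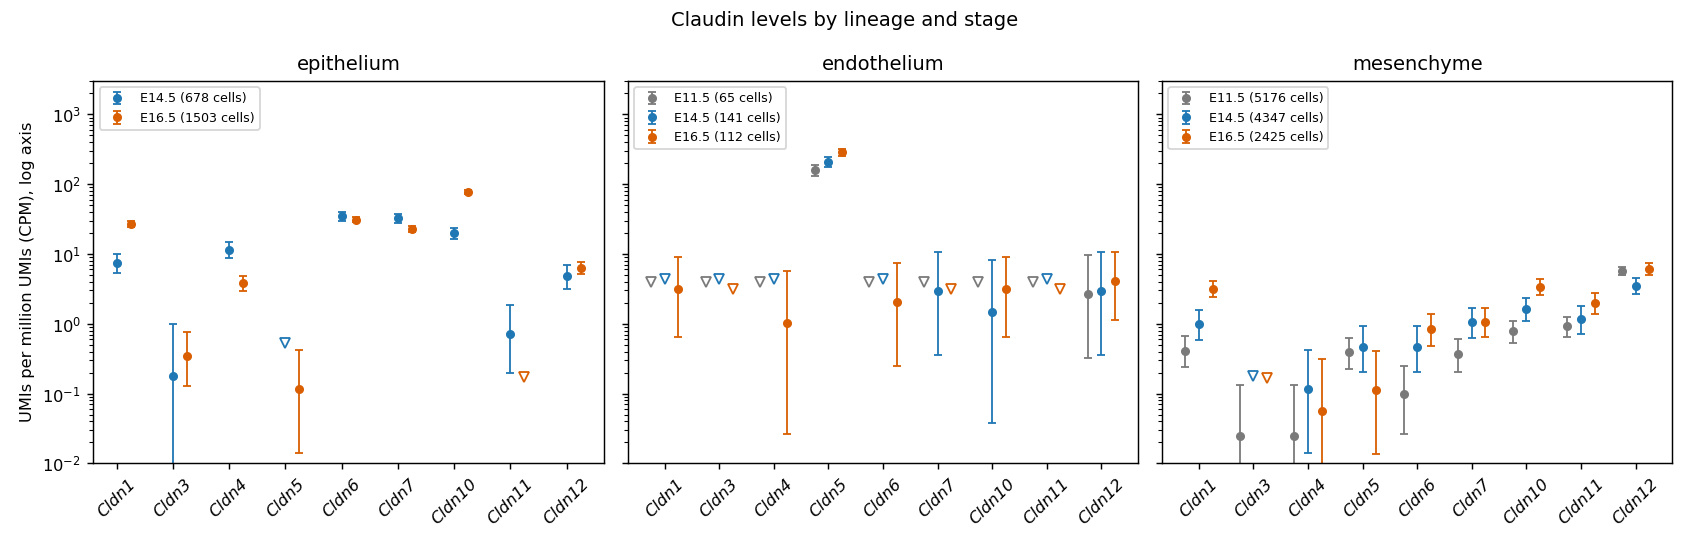
Level of the 9 claudins in CPM (log axis) in epithelium, endothelium and mesenchyme, 1 colour per stage, with exact Poisson 95% intervals; open triangles mark genes with 0 UMIs, drawn at the level that 3 counts would give. *Cldn5* stands at 159.5 to 289 CPM in endothelium and below 1 CPM elsewhere, while *Cldn1*, *Cldn4*, *Cldn6*, *Cldn7* and *Cldn10* stand highest in epithelium; the 7 epithelial cells of E11.5 are left out.

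A gene was counted as past 2 fold when the ratio of its CPM, with 1 CPM added to both sides, was at least 2 or at most 1/2, among genes with at least 20 UMIs in the pair of groups. A gene can reach 20 UMIs through the group where it is high alone, and the claudins were chosen with earlier results of these data known. Their counts beside the share of all genes are therefore a description. Between endothelium and mesenchyme of E11.5, 32.6% of 13385 genes were past 2 fold, and of the 4 claudins counted 1 was, *Cldn5*, with a ratio of 410.0 (interval 242 to 741) before the addition. At E14.5 the background was 34.7% of 12412 genes and 2 of 5 claudins were past 2 fold. *Cldn5* was 449 fold higher in endothelium (222 to 1059). *Cldn11* was the other, with 0 UMIs in endothelium and 20 in mesenchyme, but 0 UMIs among 674666 allow up to 4.45 CPM, more than the 1.17 CPM of mesenchyme, so a difference was not detectable at this depth. At E16.5, again with a background of 34.7% (of 12955 genes), *Cldn5* and *Cldn11* were again past 2 fold: *Cldn5* was 2553 fold higher (700.1 to 21186, on 2 UMIs in mesenchyme), and *Cldn11* had 0 UMIs in endothelium against 1.98 CPM in mesenchyme, again under the level that 0 UMIs allow.

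A set of 5 claudins was higher in epithelium than in mesenchyme at both later stages, and the order of their levels differed between the stages. At E14.5 *Cldn6* had 195 UMIs in 678 cells, 34.8 CPM (30.1 to 40.1), and *Cldn7* had 182, 32.5 CPM (28.0 to 37.6), and these intervals overlap. They were followed by *Cldn10* with 111 UMIs, 19.8 CPM (16.3 to 23.9), *Cldn4* with 64 UMIs, 11.4 CPM (8.80 to 14.6), and *Cldn1* with 41 UMIs, 7.32 CPM (5.26 to 9.94). *Cldn4* overlaps *Cldn1* in its interval, and *Cldn1* overlaps *Cldn12*, which had 27 UMIs and 4.82 CPM (3.18 to 7.02). *Cldn11* had 4 UMIs, *Cldn3* had 1 and *Cldn5* had 0. Levels of different genes are set side by side per captured molecule, since 3' libraries count about 1 tag per RNA whatever its length.

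At E16.5 *Cldn10* led with 1323 UMIs in 1503 cells, 77.3 CPM (73.2 to 81.5). *Cldn6* had 528 UMIs, 30.8 CPM (28.3 to 33.6), *Cldn1* had 462, 27.0 CPM (24.6 to 29.6), and *Cldn7* had 393, 23.0 CPM (20.7 to 25.3). Each of these 3 overlaps its neighbour in the order. *Cldn12* with 6.25 CPM (5.12 to 7.55) stood above *Cldn4* with 3.85 CPM (2.98 to 4.90), *Cldn3* had 6 UMIs, *Cldn5* had 2 and *Cldn11* had 0. *Cldn10* made up 45.8% of the UMIs of the 9 genes in epithelium at E16.5 (44.0 to 47.7) and 17.8% at E14.5 (14.8 to 21.0). The 9 genes together came to 112 and 169 CPM at the 2 stages, and held 93.7% and 94.0% of the UMIs of all claudins in these cells.

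**Figure D2:**
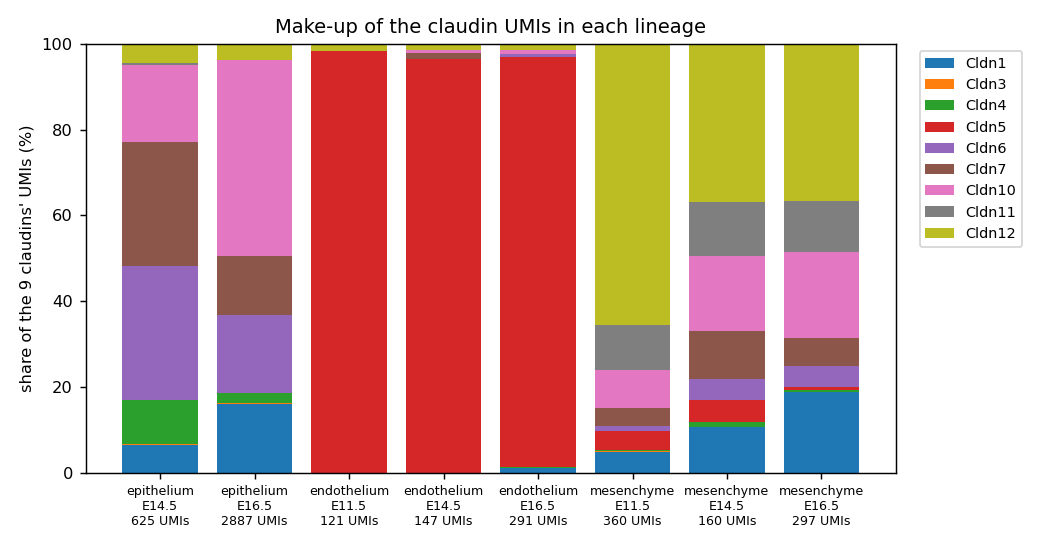
Stacked bars of the share of each claudin among the UMIs of the 9 genes, in percent, for each lineage and stage with at least 50 cells; the number of UMIs behind each bar is under it. Endothelium is nearly all *Cldn5* (95.5% to 98.3%). Epithelium is spread over several members, with *Cldn10* at 45.8% and *Cldn4* at 2.29% in E16.5. In mesenchyme *Cldn12* is the largest share (36.7% to 65.6%) of few UMIs.

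Between epithelium and mesenchyme of E14.5, 20.2% of 12959 genes were past 2 fold, and 5 of the 7 claudins counted were, all higher in epithelium. *Cldn4* was 97.5 fold higher (25.9 to 822, on 2 UMIs in mesenchyme), *Cldn6* 74.3 fold (36.9 to 174), *Cldn7* 30.8 fold (18.9 to 53.1), *Cldn10* 12.1 fold (7.92 to 19.0) and *Cldn1* 7.35 fold (4.08 to 13.8). At E16.5 the background was 20.4% of 14041 genes and 6 of 7 claudins were past 2 fold. The same 5 were higher in epithelium, by 68.2 fold for *Cldn4* (11.8 to 2735, on 1 UMI in mesenchyme), 36.4 for *Cldn6* (21.9 to 65.5), 22.8 for *Cldn10* (17.6 to 30.0), 21.4 for *Cldn7* (13.5 to 35.9) and 8.53 for *Cldn1* (27.0 CPM against 3.16 CPM, 2.39 to 4.11, in mesenchyme). *Cldn11* was lower, with 0 UMIs in epithelium and 35 in mesenchyme. It was 11.3 fold lower when 3 counts over the group are taken as the floor, and its exact interval starts at 8.70 fold. *Cldn12* was level between the 2 lineages at E16.5, with a ratio of 1.01 (0.770 to 1.34), and at E14.5 its ratio was 1.39 (0.850 to 2.23). *Cldn3* and *Cldn5* had too few UMIs in this pair to be counted at either stage. The median log2 ratio of the 7 counted was 2.98 at E14.5 and 2.75 at E16.5, where that of all genes was 0.02 and 0.06. *Cldn4*, *Cldn6* and *Cldn7* had fewer than 20 UMIs in mesenchyme at both stages, and *Cldn1* at E14.5. They were thus counted through epithelium, where they were high, so the counts and medians are a description.

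Between epithelium and endothelium the 2 sets of claudins separated, though the few endothelial cells limited the size of the folds. At E14.5, 33.3% of 10666 genes were past 2 fold, and 6 of 7 claudins were. *Cldn1*, *Cldn4* and *Cldn6* had 0 UMIs in endothelium. With 3 counts there taken as the floor, they were 1.65, 2.57 and 7.83 fold higher in epithelium, and their exact intervals start at 1.28, 2.03 and 6.31. *Cldn7* had 32.5 CPM against 2.96 CPM in endothelium (interval of the ratio 2.99 to 91.2) and *Cldn10* was 13.4 fold higher (2.35 to 533). *Cldn5*, with 0 UMIs in epithelium, was 393 fold lower by the same floor, with an exact interval that starts at 315 fold. At E16.5, with a background of 35.7% of 12760 genes, 6 of 7 were again past 2 fold. *Cldn10* was 24.8 fold higher in epithelium (8.47 to 120.5), *Cldn6* 14.9 fold (4.09 to 123) and *Cldn1* 8.67 fold (2.95 to 42.2). *Cldn7*, with 0 UMIs in endothelium, was 7.37 fold higher by the same floor, with an exact interval that starts at 5.97. *Cldn4* was 3.71 fold higher with an interval that includes 1 (0.644 to 149). *Cldn5* had a ratio of 0.000405 (0.0000488 to 0.00148). The summed epithelial markers in endothelium were 34.1 CPM at the earlier and 129.7 CPM at the later of these stages, and their part in the endothelial counts of epithelial claudins was not tested.

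From E14.5 to E16.5, the order of the claudins in epithelium changed. The background was 7.34% of 12899 genes past 2 fold, and 3 of 6 claudins were. *Cldn10* was 3.90 fold higher at E16.5 (3.21 to 4.77) and *Cldn1* 3.68 fold higher (2.67 to 5.20), while *Cldn4* stood at a ratio of 0.337 (0.235 to 0.483). *Cldn7* was lower with a ratio of 0.706 (0.591 to 0.846), and the intervals of *Cldn6* (0.885, 0.750 to 1.05) and *Cldn12* (1.30, 0.843 to 2.06) include 1. The log2 ratio of *Cldn10* was 1.91 and became 1.37 when each cell was thinned to 2000 UMIs. That of *Cldn4*, -1.36, became -0.49 with thinning, on which it was no longer past 2 fold. The epithelial cells captured also differed between the stages. Cells with a UMI of *Shh* were 14.2% of epithelium at E14.5 and 31.3% at E16.5, and those with *Igfbpl1* 3.54% and 32.5%. Those with *Krt15* were 11.9% and 6.39%, with *Meis2* 19.0% and 5.46% and with *Sox2* 22.7% and 7.72%. With *Pcp4* they were 7.23% and 10.6%, and with *Nr2f2* 40.3% and 49.2%. Median depths over all epithelial cells were 5276.5 and 7190 UMIs. *Cldn1* was higher at the later stage on both sides of the *Shh* split, with 28.4 and 43.6 CPM in cells that held a *Shh* UMI and 2.01 and 16.6 CPM in the others. *Cldn4* was lower on both sides of the *Krt15* split, with 38.1 and 3.43 CPM in cells that held a *Krt15* UMI and 7.57 and 3.90 CPM in the others. These splits rest on a detected UMI, and depths differed between the stages. The part of the shifts in the cells captured was not tested for any claudin.

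**Figure D3:**
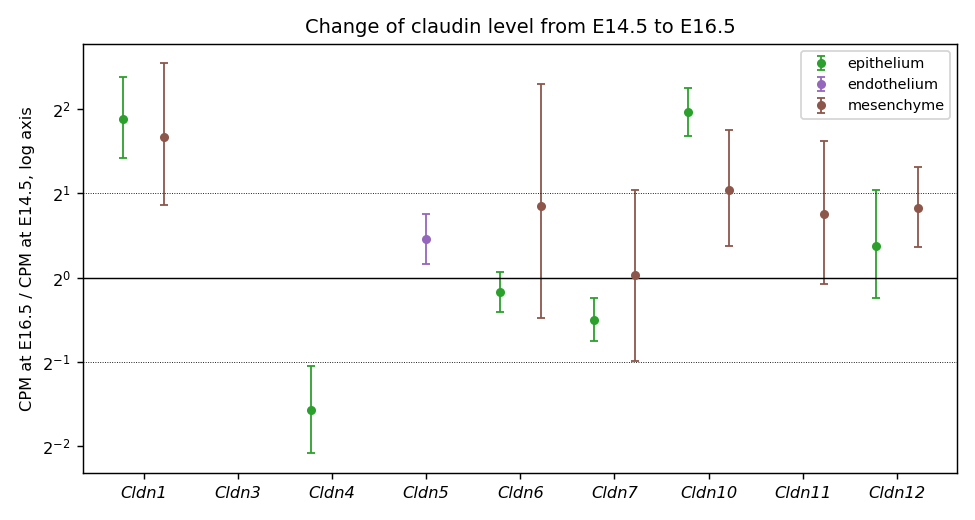
Ratio of CPM at E16.5 to CPM at E14.5 (log axis) for each claudin with at least 20 UMIs in the pair and a UMI at both stages, by lineage, with exact 95% intervals; dotted lines mark 2 fold. *Cldn10* (3.90) and *Cldn1* (3.68) of epithelium lie above the upper line and *Cldn4* (0.337) below the lower one, and *Cldn1* (3.17) and *Cldn10* (2.06) of mesenchyme lie above the upper line too, the latter not past 2 fold once 1 CPM is added.

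In endothelium, 5.74% of 7090 genes were past 2 fold from E14.5 to E16.5, and the 1 claudin counted, *Cldn5*, was not, with a ratio of 1.37 (1.12 to 1.69). From E11.5 to E14.5 the background was 11.1% of 6689 genes, and *Cldn5* had a ratio of 1.32 (1.03 to 1.70). Both intervals lie above 1, but a few cells carried much of the level: the 10 highest cells held 56.3%, 32.4% and 42.4% of the *Cldn5* UMIs at the 3 stages, and 1 cell of E16.5 held 28 UMIs, without which the level was 263 CPM. When each cell was thinned to 2000 UMIs, 17.0% of 53 endothelial cells had a *Cldn5* UMI at E11.5 (8.07 to 29.8), 36.1% of 108 at the next stage (27.1 to 45.9) and 34.9% of 106 at the last (25.9 to 44.8). At equal depth the 3 intervals overlap, with E11.5 lowest, where the thinned level was 94.3 CPM on 10 UMIs and the log2 ratio of E14.5 to E11.5 was 1.20 in place of 0.40. Thinning left out 12, 33 and 6 shallower cells.

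Mesenchyme had low levels of all 9 genes, which held 37.0%, 46.1% and 56.6% of the UMIs of all claudins there in order of stage. Most of the rest were of *Cldn34c1*, described with the other claudins. Among the 9, *Cldn12* was the highest, with 236, 59 and 109 UMIs at the 3 stages, or 5.74 CPM (5.03 to 6.52), 3.46 CPM (2.63 to 4.46) and 6.16 CPM (5.06 to 7.43). *Cldn11* stood at 0.924, 1.17 and 1.98 CPM and its intervals at neighbouring stages overlap. *Cldn10* stood at 0.778, 1.64 and 3.39 CPM, *Cldn1* at 0.413, 0.997 and 3.16 CPM, *Cldn7* at 0.365, 1.06 and 1.07 CPM, and *Cldn6* at 0.0973, 0.469 and 0.848 CPM. *Cldn3* and *Cldn4* had at most 2 UMIs at any stage.

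From E14.5 to E16.5, 6.21% of 13613 genes were past 2 fold in mesenchyme, and of 6 claudins 1 was: *Cldn1*, which was 3.17 fold higher (1.82 to 5.83). *Cldn10* was 2.06 fold higher (1.30 to 3.36) before the 1 CPM was added, and *Cldn12* 1.78 fold (1.29 to 2.49). From E11.5 to E14.5, 14.9% of 14152 genes were past 2 fold and 0 of 6 claudins were, with *Cldn12* at 0.603 (0.445 to 0.805) and *Cldn10* at 2.11 (1.22 to 3.62). No p was computed beside this count of 0, since each stage was 1 pool. The summed epithelial markers in mesenchyme were 4.60, 53.0 and 83.2 CPM at the 3 stages, with all 10 markers present at each. Without cells that held 2 or more markers of another lineage, the log2 ratio of *Cldn1* in mesenchyme was 1.20 in place of 1.06. That setting keeps cells with fewer such markers. The part of epithelial RNA in the mesenchymal levels of *Cldn1* and *Cldn10* was not tested.

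At E11.5, 7 cells were called epithelium, too few for a comparison, and they are described 1 by 1. *Cldn7* was present in all 7, with 20, 5, 3, 5, 1, 3 and 6 UMIs in order of falling depth from 40369 to 3591 UMIs. *Cldn6* was present in 5 of them with 10 UMIs, *Cldn4* in 4 with 5 UMIs and *Cldn1* in 2 with 3 UMIs. *Cldn10* was absent in all 7, where 3 counts over the group would be 24.5 CPM. *Cldn7* thus made up 69.4% of the 62 claudin UMIs in these cells (56.3 to 80.4).

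Within epithelium the claudins were not spread alike over the cells. Cells were split by whether they held a UMI of 1 of 7 genes that mark parts of the dental and oral epithelium. These genes were chosen with earlier results of these data known, so the ratios are a description. *Cldn1* went with *Shh*, the ligand made by the enamel knot and by inner enamel epithelium: at E14.5, the 96 cells with a *Shh* UMI had 32 of its 41 UMIs and 28.4 CPM against 2.01 CPM in the other 582, a ratio of 14.1 (6.59 to 33.6). At E16.5 the ratio was 2.63 (2.17 to 3.19), with 43.6 CPM in 470 cells and 16.6 CPM in 1033. *Igfbpl1* split it in the same direction, with 5.81 at E14.5 on 24 cells (2.70 to 11.7) and 2.31 at E16.5 (1.91 to 2.79). *Cldn1* was not particular to these cells at E16.5. There it was also higher with *Meis2* (2.34, 1.85 to 2.94) and *Nr2f2* (1.67, 1.35 to 2.08), whose E14.5 intervals include 1, and lower with *Pcp4* (0.566, 0.404 to 0.776). *Cldn6* did not follow *Shh*, with ratios of 0.961 (0.656 to 1.38) and 0.842 (0.700 to 1.01).

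*Cldn10* went with *Pcp4* and with *Sox2*, the transcription factor of the incisor's epithelial stem cells, at E16.5. Since the split genes were chosen with earlier results of these same data known, the ratios are no independent evidence, that for *Sox2* included. The 160 cells with a *Pcp4* UMI had 289.6 CPM against 38.8 CPM in the other 1343, a ratio of 7.47 (6.69 to 8.35), and held 761 of the 1323 UMIs. The 116 cells with a *Sox2* UMI had 284 CPM against 47.3 CPM, a ratio of 5.99 (5.37 to 6.68), and held 615 of the 1323 UMIs. The *Pcp4* and *Sox2* cells thus overlap, and their ratios are not separate results. In cells with a UMI of *Nr2f2*, a nuclear receptor, *Cldn10* was lower, with 31.6 CPM in 740 cells against 157 CPM in 763, a ratio of 0.201 (0.178 to 0.228), and in cells with *Igfbpl1* it was 0.314 (0.269 to 0.365). At E14.5 the ratio for *Pcp4* was 2.47 (1.56 to 3.81), on 49 cells, while those for *Sox2* (0.826, 0.543 to 1.24) and *Igfbpl1* (0.802, 0.288 to 1.80) include 1, and for *Nr2f2* it lay on the other side of 1, at 1.63 (1.08 to 2.49). The cells with *Sox2* were deeper than the others at E16.5, with medians of 11949.5 and 6964 UMIs. The highest cell held 58 UMIs, 4.38% of the total, and without the 10 highest the level of E16.5 was 61.7 CPM.

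*Cldn7* and *Cldn4* went with *Krt15*, a keratin of basal cells that is also 1 of the 10 epithelial markers used for the call, at E14.5. In the 81 cells with a *Krt15* UMI, *Cldn7* had 95.8 CPM against 23.3 CPM in 597 cells, a ratio of 4.11, and *Cldn4* had 38.1 CPM against 7.57 CPM, a ratio of 5.03 (2.94 to 8.48). Over all epithelium of E14.5, 1 cell of 49087 UMIs held 9 of the 64 *Cldn4* UMIs (14.1%). Without the 10 highest cells the *Cldn4* level was 7.24 CPM in place of 11.4 CPM. Cells with *Meis2*, a homeobox gene, gave 2.70 for *Cldn7* (61.4 against 22.7 CPM) and 2.15 for *Cldn4* (1.26 to 3.64). At E16.5 the *Krt15* ratios were 1.43 for *Cldn7* (1.06 to 1.91) and 0.880 for *Cldn4* (0.311 to 2.03). After thinning to 2000 UMIs, which was added after the data were seen, the E14.5 ratios for *Krt15* were 2.29 for *Cldn7* on 40 UMIs and 1.20 for *Cldn4* on 10 UMIs. A ratio of 2.96 for *Cldn7* in the E16.5 cells with *Sox2* (2.36 to 3.68) became 1.14 after thinning. The corresponding values for *Cldn10* were 5.83 with *Sox2*, 4.92 with *Pcp4*, 0.228 with *Nr2f2* and 0.128 with *Igfbpl1*, and for *Cldn1* with *Shh* it was 3.56 at E16.5, while at E14.5 thinning left 6 UMIs of *Cldn1*.

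*Cldn6* was the most even of the 5. Over the 7 genes its ratios lay between 0.754 and 1.42 at E14.5 and between 0.701 and 1.12 at E16.5. Before thinning it was also found in the most cells, with a UMI in 20.9% and 24.0% of epithelial cells in order of stage. In the same order, 45 and 101 cells held 50% of its UMIs. After thinning, *Cldn6* still led at E14.5, in 6.91% of cells (5.06 to 9.16) against 5.65% for *Cldn7* (3.99 to 7.74). At E16.5 *Cldn10* was then found in more cells, 8.49% (7.09 to 10.1) against 6.37% for *Cldn6* (5.15 to 7.77). The intervals overlap at both stages. For *Cldn10*, 36 cells held 50% of the UMIs at E16.5. A list named for periderm held *Grhl3*, *Krt6a*, *Krt17*, *Gabrp*, *Krt4*, *Krt8*, *Krt18* and *Krt19*. Cells with UMIs of at least 2 of these were 36.6% of epithelium at E14.5 and 29.2% at E16.5, so they are not read as periderm. They had more *Cldn10*, by 2.54 fold at E14.5 (1.59 to 4.21) and 4.13 fold at E16.5 (3.62 to 4.74). These cells were deeper, with medians of 9176 against 4232 and 11951 against 5940 UMIs.

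**Figure D4:**
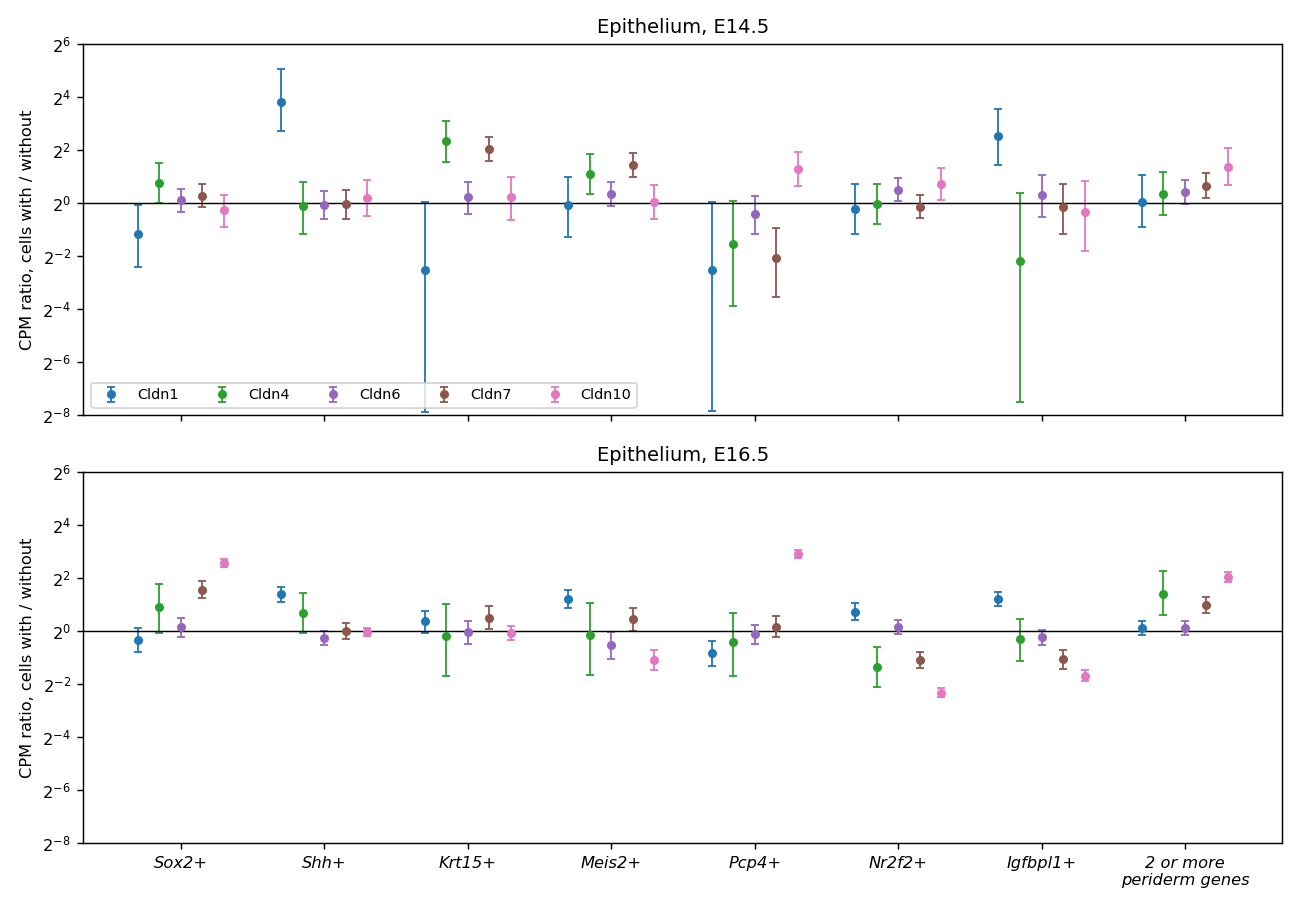
Ratio of CPM between epithelial cells with and without a UMI of each split gene, or at least 2 genes of the list named for periderm (log axis). The 5 epithelial claudins are shown at E14.5 (top) and E16.5 (bottom), with exact 95% intervals. *Cldn1* stands out with *Shh* at E14.5 (14.1), *Cldn10* with *Pcp4* (7.47) and *Sox2* (5.99) at E16.5 and on the low side with *Nr2f2* (0.201), and *Cldn6* stays between 0.701 and 1.42.

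At E14.5, 40.1% of epithelial cells held a UMI of at least 1 of these 5 genes and 13.4% held at least 2, and at E16.5 it was 49.2% and 17.2%. Median depths were 5276.5 and 7190 UMIs. After thinning to 2000 UMIs the shares with at least 2 were 1.88% and 2.41%. The pair with the largest excess of cells over the product of its single shares at E16.5 was *Cldn7* with Cldn10: 17 of 1413 thinned cells had both, where the shares multiplied give 4.84 cells, and at E14.5 it was 4 of 637 against 1.41. *Cldn1* and *Cldn10* met in 2 thinned cells of E16.5, where the product is 5.27. Before thinning the direction was the other way, with 69 of 1503 cells against 46.4. In immune cells of E14.5, which should lack them, none of the 5 had a UMI in 118 cells, which allows a share of up to 2.54%, taking 3 of 118 cells as the limit. Other classes held them more often: 9 of 140 cells called erythroid at E14.5 and 12 of 63 at E16.5 had a UMI of the 5. At E16.5 it was 1 of 24 immune cells.

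In endothelium, *Cldn5* had ratios between 0.889 and 1.17 in the splits by at least 2 arterial genes (of *Gja4*, *Gja5*, *Sox17*, *Hey1*, *Efnb2* and *Dll4*) or venous genes (of *Nr2f2*, *Aplnr* and *Ephb4*) of E11.5 and E14.5, each with an interval that includes 1. At E16.5 it was higher in the 52 cells with at least 2 arterial genes, 324 CPM against 218 CPM, a ratio of 1.49 (1.13 to 1.98), and lower in the 47 with venous genes, 200.1 CPM against 431 CPM, a ratio of 0.464 (0.363 to 0.592). After thinning the venous ratio was 1.03 and the arterial one 2.96, on 58 UMIs. The arterial and venous sets overlap: they held 84 and 94 of 119 *Cldn5* UMIs at E11.5, and 207 and 119 of 278 at E16.5. Cells of both sets were deeper than the rest, with medians of 15020 against 3732 UMIs at E11.5. At E16.5 the medians were 9212 against 4934.5 (arterial) and 8909 against 4929 (venous). The sets are therefore not read as arterial and venous cell types. For mesenchyme, a list named for dental papilla held *Fgf3*, *Fgf10*, *Crabp1*, *Lhx6*, *Lhx8*, *Barx1* and *Msx1*. Cells with at least 2 of these were 65.3% of mesenchyme at E16.5 and 70.7% at E11.5, so they are not read as papilla. At E16.5 they had less *Cldn1* (ratio 0.320, 0.183 to 0.561) and less *Cldn11* (0.427, 0.208 to 0.896) than the rest, while *Cldn12* had 0.926 (0.596 to 1.48). They were also deeper there, with medians of 7040.5 against 4618 UMIs. Cells of E16.5 with at least 2 osteogenic genes, such as *Runx2*, *Sp7* and *Alpl*, gave intervals that include 1 for *Cldn1*, *Cldn10*, *Cldn11* and *Cldn12*.

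Of the other 23 claudin genes, 9 had 0 UMIs in the kept cells and 6 reached 20 UMIs. Of their 1443 UMIs, 1189 were of *Cldn34c1*, on the X chromosome, whose family holds near copies, so its counts are uncertain. In mesenchyme it had 575, 172 and 215 UMIs at the 3 stages, and its 12.1 CPM at E16.5 (10.6 to 13.9) lay above the 6.16 CPM of *Cldn12*. In epithelium of E16.5 it stood at 4.79 CPM (3.81 to 5.94). *Cldn17* and *Cldn8*, neighbours on chromosome 16 with 53849 bases between them, were found in epithelium. *Cldn17* had 1 UMI at E14.5 and 61 at E16.5, 3.56 CPM (2.72 to 4.58), and *Cldn8* had 13 and 22 UMIs. *Cldn13*, 29592 bases from *Cldn4* on chromosome 5, had 27 UMIs in 118 erythroid cells of E11.5, 35.7 CPM (23.5 to 52.0), against 0.243 CPM in mesenchyme. These 4 genes were chosen after their values were seen.

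Of the other tight junction genes, 31 of a list of 32 names were counted. Between epithelium and mesenchyme, 12 of 28 were past 2 fold higher and 4 lower at E14.5, with a median log2 ratio of 0.46 where that of all genes was 0.02, and 15 of 29 were higher and 3 lower at E16.5 (median 1.08, all genes 0.06). Higher at both stages were the strand proteins *Ocln*, *Marveld2* and *Marveld3*, the adhesion molecules *F11r* and *Cxadr*, *Lsr* and *Ildr2* of tricellular contacts, the polarity genes *Pard6b*, *Prkcz*, *Patj* and *Crb3*, and the linker *Afdn*. *Ocln*, for occludin, had 33 UMIs in epithelium and 0 in mesenchyme at E14.5 and 7.30 CPM against 0.113 CPM at E16.5 (64.6 fold, 17.5 to 539). *Ildr1*, *Cgn* and *Ybx3* were past 2 fold at E16.5. Lower at both stages were *Jam2*, *Jam3* and *Cgnl1*, and *Magi2* was lower at E14.5. From E14.5 to E16.5 in epithelium, 0 of 28 of this list were past 2 fold (median 0.12), where 7.34% of all genes were (median 0.15).

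Between endothelium and mesenchyme, 6 of 25 genes of the list were higher and 8 lower at E11.5, 6 of 22 and 6 at E14.5, and 7 of 23 and 5 at E16.5, where 32.6%, 34.7% and 34.7% of all genes were past 2 fold in either direction. *Tjp1*, *F11r*, *Esam*, *Magi3* and *Afdn* were higher at all 3 stages, and *Pard6g*, *Magi2* and *Cxadr* were lower, though the intervals of *Cxadr* at E14.5 (0.00831 to 1.91) and E16.5 (0.0764 to 1.12) include 1. *Esam*, an endothelial adhesion molecule, had 149, 250.5 and 372 CPM, beside 159.5, 210.5 and 289 CPM of *Cldn5* in the same cells. *Jam2* was past 2 fold higher at E14.5 and E16.5, *Ildr2* at E16.5 and *Cgnl1* at E11.5, while *Jam3* was lower at E11.5, and *Pard3* and *Prkci* at E14.5 and E16.5. Also counted as lower were *Lsr*, *Ildr2*, *Pard6b* and *Patj* at E11.5 and *Patj* at E14.5, but all of these had 0 UMIs in endothelium. Counts of 0 allow up to 4.95 CPM at E11.5 and 5.47 CPM at E14.5 (exact Poisson), above the levels in mesenchyme (1.36 to 4.35 CPM), so a difference was not detectable at this depth. Between epithelium and endothelium 13 of 27 were higher and 6 lower at E14.5, and 14 of 30 and 7 at E16.5, against 33.3% and 35.7% of all genes in either direction. *Tjp1*, which codes for ZO-1, stood at 37.9 and 39.2 CPM in epithelium and at 199 and 267 CPM in endothelium. From E14.5 to E16.5, 1 of 23 was past 2 fold in mesenchyme (all genes 6.21%) and 0 of 14 in endothelium (all genes 5.74%). The 1 was *Lsr*, higher at E16.5 (2.62 fold, 1.68 to 4.19). From E11.5 to E14.5, 1 of 13 was past 2 fold in endothelium (all genes 11.1%), *F11r*, which was higher at E14.5 (2.36 fold, 1.24 to 4.69). In mesenchyme 3 of 24 were (all genes 14.9%), with *Cgnl1* higher and *Ildr2* and *Cxadr* lower at E14.5. Each of these counts between stages is near or below the share of all genes, which does not hold for the counts between lineages.

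The genes most like each claudin were taken by Pearson's r of log2(CPM + 1) over the 12 stage and class groups with at least 50 cells, among 15885 genes with the lineage markers left out. These groups share 3 pools of cells, so r is a description. *Cldn5* was closest to *Cd93*, *Robo4* and *Adgrl4* (r = 0.994, 0.991 and 0.986), *Cldn6* to *S100a14*, *Kdf1* and *Ly6g6e* (0.995, 0.990 and 0.987), and *Cldn4* to *Cldn6*, *2310030G06Rik* and *Clstn2* (0.968, 0.965 and 0.964). *Cldn1* was closest to *Trpc4*, *Evpl* and *Gpld1* (0.968, 0.966 and 0.964), *Cldn7* to *Zfp385c*, *Sh3rf2* and *Fam83b* (0.966, 0.952 and 0.944), and *Cldn10* to *Ppl*, *Igfbpl1* and *Cyp26a1* (0.970, 0.968 and 0.961). *Igfbpl1* is close to *Cldn10* across lineages although *Cldn10* was lower in the E16.5 epithelial cells that held it. *Cldn11* was closest to *Ppp3r2*, *Dio2* and *Gm9888* (0.978, 0.977 and 0.976) and *Cldn12* to *Zfp329*, *Nectin3* and *Rbbp9* (0.974, 0.972 and 0.961), both at low levels, and *Cldn3* had too few UMIs to be compared.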

How the data were processed

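Single-cell RNA sequencing of wild type NMRI embryos was analysed from the matrices of UMI counts that the authors deposited, 1 per stage, made with Cell Ranger 4.0.0 on mm10 (10x Genomics 3' libraries) and not normalized. They hold 8708, 8192 and 5719 barcodes of at least 500 UMIs each, so barcodes below that are not in them. The labels list 10 samples, but all barcodes of a stage have the same suffix, so each stage is 1 pool and no test was made. The further filter of the study was applied (700 genes or more, no more than 20% mitochondrial UMIs).

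Cells were classed by lists of 10 markers per main lineage, with at least 3 markers and 2 times those of any other list but the erythroid one. Erythroid cells needed 10% of their UMIs in their list. Members and lists were chosen with earlier results of these data known. CPM is the UMIs of a gene per 1000000 UMIs of the group. Intervals are exact Poisson (counts), Clopper-Pearson (shares) and conditional binomial (ratios), for counting error only, as UMIs of a pool do not measure the spread between embryos. Those of counts and ratios take each UMI as a separate draw. They are therefore too narrow for the spread between cells where a few cells hold much of a gene, as for *Cldn10* at E16.5. Genes named are the 9 members, other claudins by count, tight junction genes past 2 fold and the 3 genes most like each member. From the tight junction and split lists, 2 genes are not reported here and are left out of the counts. Groups compared held at least 50 cells, but splits within a lineage could be smaller. Past 2 fold is a rule of size and not a test, and with few UMIs counting error alone can pass it. Depth ranged from 864 to 123785 UMIs per kept cell. The ratios and intervals were tested on simulated data. No cells were left out as doublets in the main values. Places are from GENCODE vM21, another release than the one counted on, and promoter sequences from RefSeq (GRCm38.p6). Alternatives were other cell filters, marker minimums, clusters, doublet removal, thinning and other additions and folds. Python 3.11.15, numpy 2.4.6, scipy 1.17.1 and scanpy 1.11.5 were used.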

Additional observations from a re-analysis of the deposited data

Results flagged for a closer look

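Claudin UMIs were found in cells called erythroid, a class outside the comparisons, above the 3 counts that 0 would allow. At E14.5, 140 such cells held 7 UMIs of *Cldn7*, 6 of *Cldn6* and 6 of *Cldn5*. At E16.5, 63 such cells held 27 UMIs of *Cldn10*, 9 of *Cldn6*, 5 of *Cldn1* and 4 of *Cldn5*, and *Cldn10* stood at 36.8 CPM (24.2 to 53.5). The summed level of the epithelial markers in erythroid cells was 265 CPM at E14.5 and 692 CPM at E16.5. At E11.5, where only 7 cells were called epithelium, it was 6.61 CPM, and the 5 epithelial claudins had 1 UMI in 118 cells. Of the 44 UMIs of the 5 epithelial claudins at E16.5, 30 lay in the 22 cells that also held at least 3 epithelial markers, and at E14.5 it was 13 of 16, in 17 cells. All 6 and all 4 UMIs of *Cldn5* lay in the 7 and 3 cells with at least 3 endothelial markers. Where these claudin UMIs came from was not tested.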

How the results depend on the processing

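Of 248 recomputed counts of claudins past 2 fold and levels of the main claudins, 224 stayed within 1.5 times the count or within the interval of the level, and none of the called directions turned. Thinning to 2000 UMIs per cell, with shallower cells left out, moved the level of *Cldn1* in epithelium to 4.71 CPM at E14.5 and 23.7 CPM at E16.5, of *Cldn4* to 7.85 and 5.31 CPM, of *Cldn10* at E16.5 to 62.6 CPM and of *Cldn5* in E11.5 endothelium to 94.3 CPM. It also gave 3 of 4 claudins past 2 fold between epithelium and mesenchyme of E14.5, 1 in endothelium from E11.5 to E14.5, and 2 in mesenchyme from E14.5 to E16.5. With 0.1 CPM added, 4 were past 2 fold between endothelium and mesenchyme of E11.5 and 2 in mesenchyme in each step between stages. With 10 CPM added or at 4 fold, 1 was past the fold between endothelium and mesenchyme of E14.5 and of E16.5, and 0 in mesenchyme from E14.5 to E16.5. At 4 fold 0 were past it in epithelium from E14.5 to E16.5. With genes of at least 1 UMI, 2 were past 2 fold in endothelium from E11.5 to E14.5 and 4 from E14.5 to E16.5. A marker minimum of 2 gave 2 between endothelium and mesenchyme of E11.5, and leaving out cells with 2 markers of another lineage, or the 5% with the highest doublet scores, gave 1 at E14.5. The cause was not tested in any of these. The share of all genes past the fold under each alternative setting is not given here, so these counts cannot be set against a background. Of 620 recomputed log2 ratios of single claudins, 100 were counted as outside their interval, 31 of them with 10 CPM added. The intervals are of ratios before the 1 CPM was added, so a reported log2 ratio can itself lie outside. Values that barely changed were therefore counted too. *Cldn5* between endothelium and mesenchyme of E16.5 was 1, at 8.02 both as reported and with a marker minimum of 2. The 100 thus overstate how many ratios depend on the processing. Clusters gave no epithelium at E11.5. No paired analysis was possible because the barcodes of a stage could not be assigned to samples, and for the same reason no sample could be left out. The number of endothelial cells, 65 to 141, limits what could be seen of the epithelial claudins there.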
